A study of Homo sapiens with 38 samples.

Results

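Gene expression in the commercial medium mTeSR was compared with that in the basal medium N2B27 at day 4 of capacitation, the passage of naive human pluripotent cells towards competence for lineage formation. The comparison used 4 of the 38 libraries of the series, chosen by their labels: the 2 labelled mTeSR at day 4 on Geltrex, and the 2 labelled N2B27 at day 4 on Geltrex in the first experiment. All were made from Shef6, an established human embryonic stem cell line, and from naive cells that had been adapted to culture without feeders. Beforehand they had grown in PXGL (LIF with inhibitors of MEK, tankyrase and PKC), on a serum coating in place of feeder cells according to the study's methods. They were then plated on Geltrex, a basement membrane matrix, into N2B27 with nothing added (a ROCK inhibitor was present on day 0 only) or into mTeSR in its place. RNA was read by QuantSeq, a 3′ tag method whose reads come from next to the poly(A) tail. One line was used, and the 2 libraries of a group were parallel libraries of 1 experiment, so the p-values measure the spread between such libraries and not between repeats of the experiment.

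mTeSR supplies FGF2 and TGFβ and is used to keep human pluripotent cells in the primed state, whereas unsupplemented N2B27 leaves the cells with the ligands they make themselves. Ligands of the Nodal, Activin and TGFβ branch act through type I and type II receptors on SMAD2 and SMAD3, which enter the nucleus with SMAD4 and switch on target genes. Among these targets are LEFTY1 and LEFTY2, secreted antagonists that bind Nodal or its co-receptor and damp the signal. Nodal signalling holds the primed state together with FGF, and in the embryo it acts with WNT to induce the primitive streak, whose cells express TBXT, MIXL1 and EOMES.

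The mTeSR libraries held 4208819 and 4342115 counts and the N2B27 libraries 5612354 and 5353780, so a gene at the floor of 3 counts was at 0.706 and 0.691 CPM (counts scaled to a common total of 1000000) in mTeSR and at 0.520 and 0.538 CPM in N2B27. The markers of pluripotent cells summed to between 5161 and 5223 CPM in mTeSR and to between 4932 and 4977 CPM in N2B27, with all 8 above the floor in the 4 libraries and none of the 8 called. Markers of trophectoderm summed to 33.5 CPM at most, those of amnion to 8.15 CPM and those of hypoblast or endoderm to 6.91 CPM, with no member called and with KRT7, CGA, VTCN1, GABRP, SOX17 and APOA1 among those at or under the floor. Mitochondrial genes took 3.18% and 2.71% of counts in mTeSR and 2.68% and 2.55% in N2B27. The 2 mTeSR libraries agreed less well with each other than the 2 N2B27 libraries did (Pearson r of log2 CPM 0.979 and 0.986). Between the means of the groups r was 0.981. In a bulk library fewer cells of a type and less RNA per cell cannot be told apart, which holds for every value given here.

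At day 4 the medium separated few genes. Among the well-expressed ones Nodal antagonists, the streak factors MIXL1 and TBXT, PDK1, SP5, NRN1 and SLC16A3 were among those lower in mTeSR. VIM, COL6A1, MX1, LRRN1 and the noncoding RNAs LINC00458 and LINC01356 were among those higher. With N2B27 of the second experiment as controls, described below, MIXL1, PDK1, SP5, NRN1 and LRRN1 lost their calls and SLC16A3 changed sign. Of 16674 genes tested, 263 (1.58%) were called at an adjusted p under 0.05 with more than a 2-fold difference, 135 of them higher in mTeSR (0.81%) and 128 lower (0.768%). The median log2 difference of all genes was 0.00, where every log2 difference is mTeSR minus N2B27 unless stated otherwise. A further 271 genes were higher and 254 lower at an adjusted p under 0.05 but within the 2-fold limit. Most called genes were low: 29 of the 135 and 28 of the 128 had a mean of 20 CPM or more on their higher side, while 11 of the 135 were at or under the floor in both N2B27 libraries and 18 of the 128 in both mTeSR libraries. The count rested on all 4 libraries, since it was 154 without N2B27 replicate 1, 111 without N2B27 replicate 2, 157 without mTeSR replicate 1 and 153 without mTeSR replicate 2, and DESeq2 called 146.

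**Figure D1:**
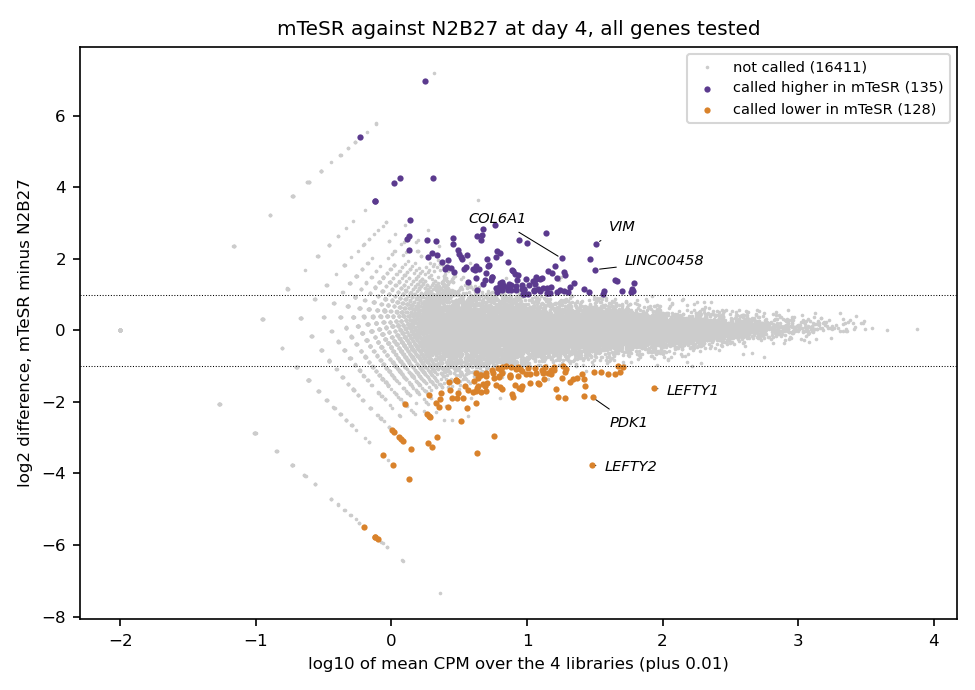
Log2 difference between mTeSR and N2B27 at day 4 (y axis) against the log10 of the mean CPM over the 4 libraries (x axis), with 1 point per gene and dotted lines at the 2-fold limit. The 135 genes called higher and 128 called lower are coloured, and most lie at low levels, with LEFTY1, LEFTY2, PDK1, VIM, COL6A1 and LINC00458 among the exceptions.

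N2B27 at day 4 was also sampled in the second experiment (2 libraries), and the mTeSR libraries were set against these as an alternative to their own controls, so both comparisons share the mTeSR libraries. The experiment and the medium cannot be told apart there, so the result shows only how far the values depend on which N2B27 libraries serve as controls. With the second experiment's controls 133 genes were higher and 42 lower, and 56 of the 135 genes and 21 of the 128 genes kept their call and direction (41.5% and 16.4%, or 42.1% and 50% of the new calls). The sign was kept by 128 of the 135 and 122 of the 128, and the medians moved from 1.48 to 1.10 and from -1.49 to -0.86. Of the 32 gene lists 15 had a median of the other sign with these controls, and of the 23 lists with 0 calls 6 then had at least 1. The values against these controls are therefore given for most genes described.

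Among genes at 20 CPM or more the largest fall was that of a Nodal antagonist. LEFTY2 (chromosome 1, 225936598 to 225941383; coordinates are on GRCh38 throughout) stood at 2.59 and 5.53 CPM in the 2 mTeSR libraries and at 52.5 and 59.3 CPM in the 2 N2B27 libraries. The groups lay far apart, and the log2 difference was -3.77 (SE 0.329, adjusted p 1.43e-08), a 13.6-fold lower level. In the second experiment's N2B27 libraries LEFTY2 was at 40.9 and 47.1 CPM, near the first experiment's controls, and the difference was -3.43 (adjusted p 2.06e-07).

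LEFTY1 (chromosome 1, 225886282 to 225911382), its paralog and neighbour, was at 40.9 and 43.3 CPM in mTeSR and at 131 and 129 CPM in N2B27. Its log2 difference was -1.63 (SE 0.186, adjusted p 1.08e-06), and -1.02 against the second experiment's controls at 82.3 and 88.7 CPM (adjusted p 0.00166). LEFTY1 and LEFTY2 are alike in sequence and estimated counts can be split between them, so the share of each in the fall is uncertain. NODAL itself, the ligand, was at 94.8 and 118 CPM in mTeSR and at 168 and 181 CPM in N2B27, and its log2 difference of -0.71 (adjusted p 0.00744) passed the test but not the 2-fold limit, as it did with the second experiment's controls (-0.69, adjusted p 0.0156).

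No other gene of the Nodal and Activin target list was called, where the streak factors, which Nodal also induces, form a list of their own. Of 13 targets tested 2 were called lower (the LEFTY genes) and 0 higher, and the median log2 difference was -0.43 beside 0.00 over all genes, with 8 of the 13 at an unadjusted p under 0.05. The median was -0.19 without mTeSR replicate 1 and -0.21 with the second experiment's controls, where 12 of 13 were negative and the LEFTY genes were again the 2 called. Another 2 were lower and 1 higher at an adjusted p under 0.05 within the 2-fold limit. Of the lower ones SMAD7, an inhibitory SMAD, had a log2 difference of -0.45 (adjusted p 0.0459), and -0.11 with the second experiment's controls, where it did not pass the test. Of 14 genes of the pathway itself (ligands, receptors, co-receptors and SMADs) 0 were called, 3 had an unadjusted p under 0.05 and the median was 0.01. For this and every other list with 0 calls here DESeq2 called 0 genes as well, and 3065 of all genes tested had an unadjusted p under 0.05.

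Transcription factors of the primitive streak fell with the antagonists. MIXL1 (chromosome 1, 226223618 to 226227060), a homeobox factor of streak and mesendoderm, was at 6.12 and 9.90 CPM in mTeSR and at 28.4 and 31.2 CPM in N2B27, a log2 difference of -1.89 (SE 0.246, adjusted p 8.72e-06). TBXT (chromosome 6, 166157656 to 166168700), the brachyury factor of the streak and notochord, was at 8.24 and 6.22 CPM against 27.4 and 25.6 CPM, with a log2 difference of -1.87 (SE 0.258, adjusted p 2.84e-05). For both genes every mTeSR library lay under every N2B27 library, as it did for all 128 genes called lower.

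EOMES, the T-box factor that acts early in the streak, was near the floor in mTeSR at 0.706 and 1.84 CPM and at 4.85 and 3.40 CPM in N2B27, and it was called with an adjusted p of 0.0473. It lost its call in DESeq2 and without any 1 of the 4 libraries, where the adjusted p lay between 0.0787 and 0.380. Against the second experiment's controls TBXT kept its call (-1.43, adjusted p 0.00216), whereas MIXL1 at -0.83 (adjusted p 0.117) and EOMES at -1.01 (adjusted p 0.449) did not. Those controls held MIXL1 at 13.3 and 15.2 CPM, between the levels of both groups of the first experiment. In the streak list 3 of 10 genes tested were called lower and 0 higher, with a median of -0.64, or -0.22 with the second experiment's controls and -1.64 without mTeSR replicate 2. The 5 streak or mesoderm markers summed to between 16.5 and 18.9 CPM in mTeSR and to between 62.7 and 63.2 CPM in N2B27, with MESP1 at or under the floor.

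SP5, a zinc finger repressor that WNT and β-catenin induce directly, was the 1 gene called of 10 WNT targets tested. It was at 6.82 and 8.98 CPM in mTeSR and at 24.1 and 25.6 CPM in N2B27 (log2 difference -1.65, adjusted p 0.000814), and 1 of the second experiment's libraries lay near either group (11.5 and 22.6 CPM), where the difference was -1.12 (adjusted p 0.0573). The median of the WNT list was 0.15, and -0.02 with those libraries as controls. Of 13 BMP targets, 18 FGF and ERK targets and 7 endoderm or hypoblast genes tested, 0 were called, and 4, 8 and 2 of them had an unadjusted p under 0.05. Among the ERK targets DUSP6, the phosphatase that limits ERK, had a log2 difference of -0.71 (adjusted p 0.00728), which turned to 0.88 with the second experiment's controls. Among the BMP targets ID3, an inhibitor of helix-loop-helix factors, had 0.64 (adjusted p 0.00839), and 1.30 with those controls. With them ID3 was called, as were CCND1, a cyclin (1.12), and EGR1, an immediate early factor (1.32), among the ERK targets and CXCR4, a chemokine receptor (-1.28), among the endoderm genes.

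**Figure D2:**
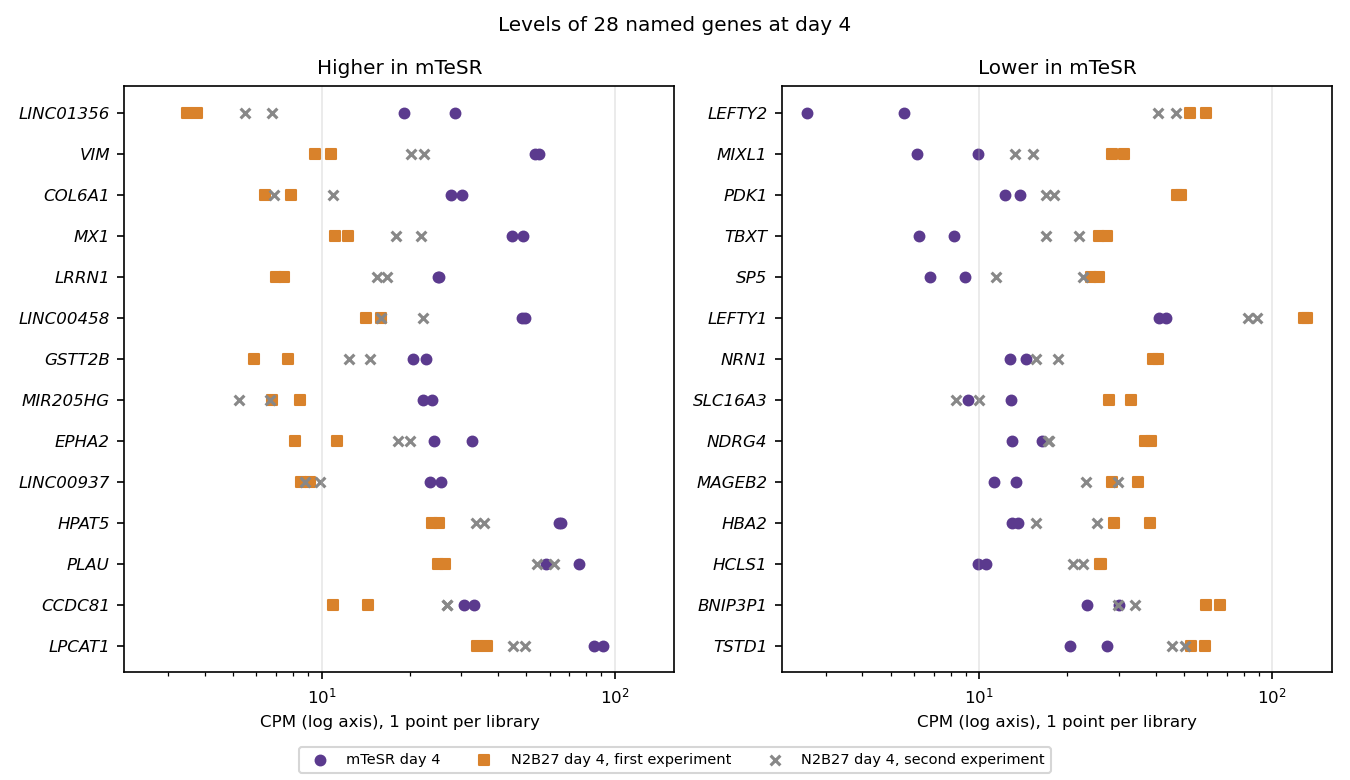
CPM (x axis, log scale) of 14 of the 15 genes with the largest rise and 14 of the 15 with the largest fall among called genes with at least 20 CPM on the higher side, with 1 point per library of mTeSR at day 4 and of N2B27 at day 4 in the first and second experiment. The mTeSR points lie apart from the first experiment's N2B27 points for all 28 genes, since the rule that picked them required no overlap. Of all 16674 genes tested, 8596 had no overlap between these groups. For SLC16A3, NDRG4, BNIP3P1, PLAU and several others the second experiment's N2B27 points lie near mTeSR.

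Several genes that cells induce when oxygen is low were lower in mTeSR too, most of them within the 2-fold limit. The hypoxia-inducible factors, HIF1 and HIF2, are stable when oxygen is scarce. They bind short sites, such as the letters ACGTG, in the promoters of their targets, which raise glycolysis, export lactate and turn mitochondria over. PDK1 (chromosome 2, 172555373 to 172608669), the kinase that shuts pyruvate out of the mitochondrion, was at 12.2 and 13.8 CPM in mTeSR and at 47.1 and 48.7 CPM in N2B27, a log2 difference of -1.88 (SE 0.212, adjusted p 9.48e-07). P4HA1, a subunit of the collagen prolyl hydroxylase, was at 110.4 and 109 CPM against 218 and 219 CPM and lay just within the 2-fold limit at -0.99 (adjusted p 5.96e-08), which it passed with library totals as the only scaling (-1.04). BNIP3, a mitophagy receptor, was at 281 and 321 CPM against 459 and 502 CPM (-0.67, adjusted p 0.00109).

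SLC16A3, the lactate exporter MCT4, was outside the hypoxia list but among the 15 genes with the largest fall, at 9.18 and 12.9 CPM in mTeSR and 27.7 and 33.0 CPM in N2B27 (-1.45, adjusted p 0.000953). BNIP3P1, a processed pseudogene of BNIP3 whose reads may come from the parent, had a log2 difference of -1.23, and of -0.26 with the second experiment's controls (adjusted p 0.655) and -0.85 with the controls of both experiments. LDHA, the lactate dehydrogenase subunit, was at 359.5 and 476 CPM against 678 and 714 CPM (-0.74, adjusted p 0.00870), within the 2-fold limit like the histone demethylase KDM3A (-0.65) and the glycolytic enzymes PGK1 (-0.64) and ALDOC (-0.68), of which ALDOC passed the limit without mTeSR replicate 2 (-1.03, adjusted p 0.0203). Of 11 hypoxia genes tested 1 was called lower, with a median of -0.63 and 8 of 11 negative, and of 17 glycolysis genes 0 were called, with a median of -0.27, 12 of 17 negative and 11 at an unadjusted p under 0.05.

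The promoter windows of PDK1, P4HA1, BNIP3 and SLC16A3 are shown so that the letters ACGTG, which the factors bind, can be seen in place. They are RefSeq windows of 300 bases on GRCh38.p14 (250 before and 50 after the start), read on the strand of the gene, with ACGTG on either strand in capitals, so that the palindrome CACGTG counts on both strands. PDK1 has 2 windows and SLC16A3 5, of which the second of each holds the letters and is shown.
PDK1, chr2:172555840-172556139, plus strand: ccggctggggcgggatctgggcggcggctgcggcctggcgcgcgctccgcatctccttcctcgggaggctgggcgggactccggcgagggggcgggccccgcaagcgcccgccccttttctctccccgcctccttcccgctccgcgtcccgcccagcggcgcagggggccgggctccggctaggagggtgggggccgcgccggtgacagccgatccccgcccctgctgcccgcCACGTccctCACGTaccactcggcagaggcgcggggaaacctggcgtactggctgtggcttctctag
P4HA1, chr10:73096817-73097116, minus strand: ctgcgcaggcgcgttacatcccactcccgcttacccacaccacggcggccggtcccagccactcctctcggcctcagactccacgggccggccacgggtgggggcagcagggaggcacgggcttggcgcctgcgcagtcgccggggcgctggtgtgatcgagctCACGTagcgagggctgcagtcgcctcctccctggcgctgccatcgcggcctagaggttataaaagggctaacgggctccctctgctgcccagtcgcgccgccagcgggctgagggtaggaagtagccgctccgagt
BNIP3, chr10:131981874-131982173, minus strand: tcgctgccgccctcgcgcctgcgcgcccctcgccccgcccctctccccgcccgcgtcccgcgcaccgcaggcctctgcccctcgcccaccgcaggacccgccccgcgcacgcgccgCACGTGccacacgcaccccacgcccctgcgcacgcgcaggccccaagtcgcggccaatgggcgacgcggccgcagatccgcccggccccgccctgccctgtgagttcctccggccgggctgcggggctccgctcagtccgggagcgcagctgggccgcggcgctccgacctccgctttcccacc
SLC16A3, chr17:82228792-82229091, plus strand: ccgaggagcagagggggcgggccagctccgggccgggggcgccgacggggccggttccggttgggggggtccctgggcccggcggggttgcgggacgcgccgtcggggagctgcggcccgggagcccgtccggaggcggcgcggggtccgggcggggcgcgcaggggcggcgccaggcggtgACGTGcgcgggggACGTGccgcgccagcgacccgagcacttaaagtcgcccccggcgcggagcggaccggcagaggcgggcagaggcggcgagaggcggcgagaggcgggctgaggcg
The letters stood in at least 1 window of 5 of the 9 hypoxia genes with an entry (55.6%) and of 11 of the 16 glycolysis genes (68.8%). They stood in 32% of the 10818 genes tested that had an entry. Counted by window, they stood in 38.5% of 13 hypoxia windows and 45.2% of 31 glycolysis windows. The share was 25% of the 15842 windows of genes tested and 21.4% of all 35116 windows. Among the other genes named here LDHA, PGK1 and ALDOC held them in 1 window each, whereas the 2 windows of KDM3A and the first window of PDK1 did not. A match is a description of the sequence only, other forms of the site were not counted, and no binding was measured.

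The difference in these genes depended on which N2B27 libraries were the controls. PDK1 was at 16.9 and 18.1 CPM in the second experiment's N2B27 libraries, close to mTeSR, and the difference was then -0.43 (adjusted p 0.440). SLC16A3 was at 8.34 and 9.99 CPM there, overlapping the mTeSR libraries, and its difference turned to 0.27 (adjusted p 0.793). P4HA1, BNIP3, LDHA and KDM3A turned to 0.37, 0.10, 0.17 and 0.11. PGK1 and ALDOC moved to -0.23 and -0.36, and neither passed the adjusted p (0.233 and 0.448). The medians of the lists turned as well, from -0.63 to 0.10 for hypoxia and from -0.27 to 0.07 for glycolysis. The lower level in mTeSR thus held against 1 of the 2 sets of N2B27 cultures, and what set them apart was not tested.

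NRN1, a neuritin anchored to the membrane, and NDRG4, of the N-myc downstream-regulated family, followed the same pattern. NRN1 was at 12.7 and 14.5 CPM in mTeSR, 40.9 and 39.1 CPM in N2B27 and 15.6 and 18.6 CPM in the second experiment's N2B27, with log2 differences of -1.55 and -0.33. NDRG4 had -1.37 and -0.24, and HBA2, an alpha globin with the near-identical copy HBA1, had -1.34 and -0.63. MAGEB2, a cancer-testis antigen, HCLS1, a cortactin-like protein of blood cells, and TSTD1, a sulfurtransferase, were also among the 15, at -1.36, -1.34 and -1.22, and at -1.10, -1.09 and -1.0 with the other controls.

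On the higher side the protein-coding gene with the largest difference among those at 20 CPM or more was VIM (chromosome 10, 17228241 to 17237593), the intermediate filament vimentin, which primed and mesenchymal cells express. VIM was at 55.3 and 53.7 CPM in mTeSR and at 9.53 and 10.8 CPM in N2B27, a 5.36-fold difference (log2 2.42, SE 0.241, adjusted p 1.57e-07). The second experiment's N2B27 held 22.4 and 20.2 CPM, between both, and the difference was 1.35 there (adjusted p 0.000608). The other intermediate filament gene called of 10 tested was NEFM, a neurofilament subunit, at 7.53 and 11.5 CPM against 1.73 and 2.87 CPM (2.04, adjusted p 0.000276), which was 0.80 with the other controls (adjusted p 0.193).

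COL6A1 (chromosome 21, 45981770 to 46005050), a chain of collagen VI, was at 30.1 and 27.6 CPM in mTeSR and 6.41 and 7.88 CPM in N2B27, a log2 difference of 2.01 (SE 0.237, adjusted p 1.55e-06). It was called against the second experiment's controls too, at 1.70. Of the 19 matrix and integrin genes of the list 0 were called and their median was 0.08, with 6 at an unadjusted p under 0.05. PLAU, the urokinase protease that acts on the matrix, was at 75.8 and 58.3 CPM against 26.3 and 24.9 CPM (1.39), but the other controls were at 54.5 and 62.3 CPM, near the mTeSR libraries (0.20, adjusted p 0.827). PLAU also lost its call without N2B27 replicate 2 (adjusted p 0.0649) and without mTeSR replicate 1 (adjusted p 0.0610).

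Contractile and cytoskeletal genes leaned to the higher side without calls. Of 15 targets of SRF, a transcription factor of cytoskeletal genes, 0 were called and 8 had an unadjusted p under 0.05. A positive log2 difference was seen in 14 (beside 8395 of the 16674 genes tested), and the median was 0.34. ACTA1, ACTC1, TAGLN and TPM1, all actin or actin-binding genes, passed the adjusted p alone at 0.77, 0.91, 0.58 and 0.39, and ACTC1 was called without mTeSR replicate 1 (1.03, adjusted p 0.00593). With the second experiment's controls the median turned to -0.18, and ACTA1, ACTC1 and TAGLN to -0.24, -0.59 and -0.47, TPM1 had an adjusted p of 0.996, and CSRP1, a LIM domain protein, was called lower (-1.20, against -0.26 with its own controls). Of 20 YAP and TEAD targets 1 was called higher, THBS1, the matrix glycoprotein thrombospondin 1 (1.12, adjusted p 0.00142), and the median was 0.18. THBS1 had 0.54 with the second experiment's controls (adjusted p 0.190) and 0.87 without N2B27 replicate 2 (adjusted p 0.0865).

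MX1, an interferon-induced GTPase, was at 44.7 and 48.6 CPM in mTeSR and 12.3 and 11.1 CPM in N2B27 (log2 1.99, SE 0.203, adjusted p 1.57e-07), and it was also higher than in the second experiment's N2B27 at 18 and 21.9 CPM (1.22, adjusted p 0.000297). LRRN1, a leucine-rich repeat membrane protein, EPHA2, an ephrin receptor, and GSTT2B, a glutathione transferase with the near-identical copy GSTT2, were higher by 1.79, 1.55 and 1.67 on the log2 scale, but with the second experiment's controls their differences of 0.64, 0.57 and 0.68 did not pass (adjusted p 0.164, 0.346 and 0.113). EPHA2 also lost its call without N2B27 replicate 1 (adjusted p 0.0555). CCDC81, a coiled-coil protein, went from 1.33 to 0.25 with those controls. LPCAT1, an enzyme that remodels phosphatidylcholine, had 1.32 and 0.90.

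The others of the 15 genes with the largest rise that are described here are noncoding. LINC00458, an intergenic RNA of human pluripotent cells, was at 49.4 and 48.4 CPM in mTeSR and 14.2 and 15.9 CPM in N2B27 (1.70, SE 0.164, adjusted p 5.96e-08), and at 22.1 and 15.9 CPM in the second experiment's N2B27 (1.36). LINC01356 was at 28.5 and 19.1 CPM against 3.47 and 3.76 CPM and at 6.77 and 5.47 CPM in the other controls, and its 6.54-fold difference was the largest of the 15. HPAT5, a transposon-derived RNA of human pluripotent cells, was higher by 1.41, LINC00937 by 1.48 and MIR205HG, the host gene of miR-205, by 1.59, with 0.91, 1.39 and 1.94 against the other controls.

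Few genes of the pluripotent states themselves were called. Of 9 general pluripotency genes 0 were called, 2 had an unadjusted p under 0.05 and the median was 0.06. SOX2, a core factor, was at 334 and 339 CPM in mTeSR and 237 and 229 CPM in N2B27 (0.53, adjusted p 0.00468), within the 2-fold limit, and had 0.49 with the second experiment's controls. Of 15 naive genes 0 were called and 5 had an unadjusted p under 0.05, with a median of -0.18, where KLF4, a naive factor, had 0.60 and ALPG, a placental-type alkaline phosphatase, -0.64. With the second experiment's controls the KLF4 value turned to -0.50 and that of ALPG was -0.72.

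Of 17 primed or formative genes tested, 2 were called higher and 1 lower, and 13 had a positive sign with a median of 0.29. The 2 were VIM and SFRP2, a secreted WNT antagonist (1.06, adjusted p 2.34e-05), and the 1 was ZIC2, a zinc finger factor of the formative state (-1.03, adjusted p 7.08e-05). SOX11, a SOXC factor, and the cadherin CDH2 were among those that passed the adjusted p alone, at 0.80 and 0.94. SOX11 had 0.79 and CDH2 turned to -0.30 with the second experiment's controls, and CDH2 was called without N2B27 replicate 1 (1.26, adjusted p 0.0265). SFRP2 came within the 2-fold limit without mTeSR replicate 1 (0.94), and ZIC2 without that library (-0.94) or N2B27 replicate 2 (-0.96). Both came within it with the second experiment's controls too, SFRP2 at 0.97 (adjusted p 0.000175) and ZIC2 at -0.86 (adjusted p 0.00139), and ZIC2 was at -0.95 with the controls of both experiments. Calls in both directions were thus made with the first experiment's controls, and with those of the second VIM was the 1 gene called of the 17.

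Genes of the neural lineage and of retinoic acid were low and mixed. PAX6, a neural and eye factor, was at 2.12 and 2.76 CPM in mTeSR and 6.41 and 6.09 CPM in N2B27 (-1.35, adjusted p 0.0374), and NTS, the neuropeptide neurotensin, was at 1.41 and 1.15 CPM against 10.4 and 9.68 CPM (-2.94), while NEFM was higher, so that of 6 neural genes tested 1 was called higher and 2 lower. The neural markers PAX6, SOX1, LHX2 and SIX3 summed to between 3.06 and 5.30 CPM in mTeSR and to between 7.70 and 8.49 CPM in N2B27, with SOX1 at or under the floor. Of 10 retinoid-responsive genes 1 was called higher and 2 lower. Among the lower ones CYP26A1, which degrades retinoic acid, had -1.24 (adjusted p 0.0496). DESeq2 called neither PAX6 nor CYP26A1, and each of them lost its call without any 1 of the 4 libraries (adjusted p between 0.128 and 0.259). PAX6 also lost it with no filter (0.0772) and CYP26A1 with RLE scaling (0.0524) and when genes had to exceed 10 counts in 2 libraries (0.0534), as both did with the first experiment's libraries only (0.0747 and 0.0644, all adjusted p), so that the calls were kept in 7 and 5 of 14 other settings. Both were called with the second experiment's controls, PAX6 at -2.0 (adjusted p 0.00172) and CYP26A1 at -1.49 (adjusted p 0.0261), as was NTS at -3.29.

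Lists of genes that respond to lipids, trace elements and oxidants held no calls with the first experiment's controls. Of 16 genes of sterol synthesis 0 were called and 3 had an unadjusted p under 0.05, with log2 differences between -0.27 and 0.33 and a median of 0.10. Its median turned to -0.48 with the second experiment's controls, beside 0.00 over all genes, with 15 of 16 negative and 10 lower at an adjusted p under 0.05 but within the 2-fold limit. MSMO1 and HMGCS1, enzymes of the pathway, had -0.91 (adjusted p 2.13e-06) and -0.87 (adjusted p 3.64e-06) there, against -0.09 and -0.27 with their own controls. The lists of fatty acid synthesis, fatty acid handling, sterol efflux, metallothioneins, selenoproteins, iron, NRF2 targets, ATF4 targets, glucocorticoid-responsive genes and p53 targets, like those of trophectoderm and amnion, had 0 calls too, with between 0 and 8 genes at an unadjusted p under 0.05 and medians between -0.39 and 0.34. The metallothionein and zinc genes had, with the second experiment's controls, a median of -0.43, 7 of 7 negative and 4 lower at an adjusted p under 0.05, and MYLIP, a ubiquitin ligase for the LDL receptor, was called higher in the sterol efflux list (1.01). TFRC, the transferrin receptor, and FTL, the ferritin light chain, which iron regulates in opposite directions, had -0.90 (adjusted p 5.00e-06) and 0.55 (adjusted p 0.000111). TFRC had -0.80 with the second experiment's controls (adjusted p 5.21e-05), whereas FTL had 0.02 (adjusted p 0.958). TXNIP, which binds thioredoxin and rises with glucose, had -0.89 (adjusted p 0.000356) against its own controls and 1.02 against those of the second experiment, and it was called without mTeSR replicate 1 (adjusted p 0.000556).

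The genes called at day 4 were called again in part at days 6 and 8, when more genes were called over all. At day 6, 204 genes were higher in mTeSR (1.22%) and 233 lower (1.4%), and at day 8, 275 (1.65%) and 359 (2.15%), each in libraries of their own. Of the 135 genes higher at day 4, 55 were called higher at day 6 (40.7% of the 135 and 27% of the 204) and 41 at day 8 (30.4%, and 14.9% of the 275), with 26 higher on all 3 days. Of the 128 lower genes, 48 were called lower at day 6 (37.5%, and 20.6% of the 233) and 24 at day 8 (18.8%, and 6.69% of the 359), with 17 lower on all 3 days. The opposite call was made for 0 genes at day 6 and at day 8 for 2 of the 135 and 4 of the 128.

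The median log2 difference of the 135 genes was 1.48 at day 4, 0.90 at day 6 and 0.80 at day 8, and that of the 128 genes was -1.49, -0.84 and -0.56, where the medians of all genes were 0.00, -0.01 and -0.01. The genes were chosen at day 4, so the day 4 median is the value that chose them, and smaller medians on days that did not choose them are built into that choice. The difference between days was tested as an interaction, which called 28 genes between days 6 and 4 (0.168%) and 281 between days 8 and 4 (1.69%). It uses the same day 4 libraries, and the day 6 count fell to between 5 and 9 without any 1 of the day 4 libraries, to 18 and 5 without mTeSR replicates 1 and 2 of day 6, and to 8 without N2B27 replicate 2 of day 6. It was 156, with 10 of the 28 among them, when the second experiment's N2B27 served as the day 4 controls, and the day 8 count was then 232, with 108 of the 281. Among the 263 genes it called 11 at day 6, and at day 8 it called 19 of the 135 and 27 of the 128.

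**Figure D3:**
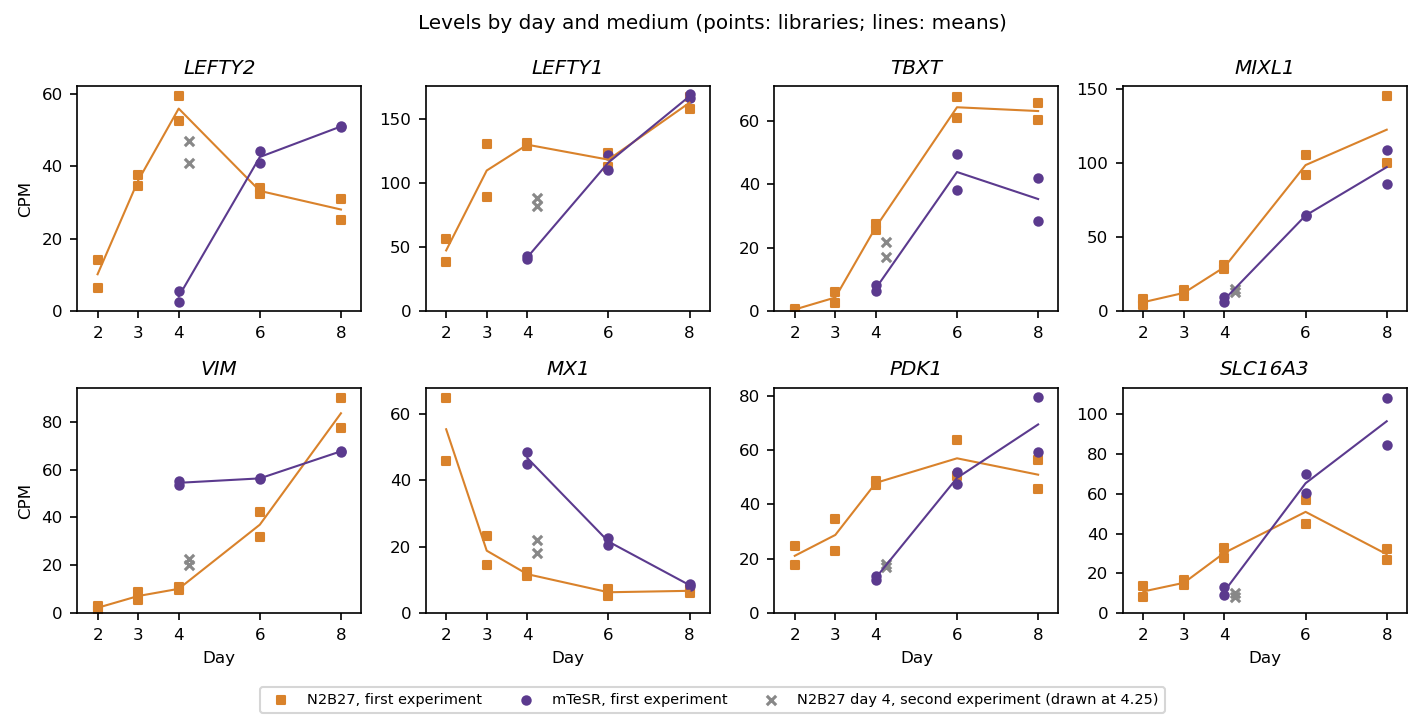
CPM (y axis) of 8 genes over days 2 to 8 (x axis), with points for single libraries of N2B27 and mTeSR in the first experiment, lines through the means and crosses for N2B27 at day 4 of the second experiment. LEFTY2, LEFTY1, PDK1 and SLC16A3 start lower in mTeSR and reach or pass N2B27 by day 8, VIM and MX1 start higher and meet N2B27, and TBXT and MIXL1 rise in both media.

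The LEFTY genes reached the N2B27 level within this time. In mTeSR LEFTY2 went from 2.59 and 5.53 CPM at day 4 to 40.9 and 44.2 CPM at day 6 and 51.0 and 50.9 CPM at day 8, while in N2B27 it was already at 34.5 and 37.6 CPM at day 3 and declined from day 4 to 34.0 and 32.4 CPM at day 6 and 30.8 and 25.3 CPM at day 8. The log2 difference was 0.36 at day 6 and 0.87 at day 8, and its change from day 4 was 4.13 (adjusted p 6.06e-07) and 4.64 (adjusted p 1.74e-08). LEFTY1 had log2 differences of -0.03 at day 6 and 0.04 at day 8, and its change from day 4 was 1.60 (adjusted p 0.00280) and 1.67 (adjusted p 7.34e-05). The change to day 8 was 4.29 for LEFTY2 and 1.07 for LEFTY1 with the second experiment's N2B27 as the day 4 controls, both called.

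MIXL1 and TBXT rose in both media. MIXL1 was at 109 and 85.9 CPM in mTeSR and 145 and 100.1 CPM in N2B27 at day 8, and the log2 difference of -0.33 then did not pass the test (adjusted p 0.255). TBXT was at 42.1 and 28.5 CPM against 65.7 and 60.3 CPM, a log2 difference of -0.83 (adjusted p 0.00692). As a list the streak genes stayed lower: 5 of 10 were called lower at day 6 with a median of -0.92 and 4 of 10 at day 8 with a median of -0.83.

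The medians of the hypoxia and glycolysis lists changed sign with time when day 4 was read with the first experiment's controls. PDK1 was at 47.6 and 51.9 CPM in mTeSR and 63.6 and 50.4 CPM in N2B27 at day 6, and at 79.5 and 59.3 CPM and 56.2 and 45.7 CPM at day 8, a change in the log2 difference of 2.33 from day 4 (adjusted p 2.16e-06). SLC16A3 had a log2 difference of 0.36 at day 6 and 1.70 at day 8 (adjusted p 3.48e-06), a change of 3.15 from day 4 (adjusted p 7.24e-07), and NRN1 reached 1.62 at day 8. At day 8, 2 of 11 hypoxia genes and 0 of 17 glycolysis genes were called higher, with 6 and 15 past the adjusted p in that direction. The list medians went from -0.63 to 0.24 and 0.50 for hypoxia and from -0.27 to 0.22 and 0.69 for glycolysis. Between days 8 and 4 the interaction called 7 of the 11 hypoxia genes and 6 of the 17 glycolysis genes, each of them rising in mTeSR relative to N2B27. With the second experiment's N2B27 as the day 4 controls, the day 4 medians were already above 0 (0.10 and 0.07), and the same test called 1 of the 11 and 2 of the 17. The change was then 0.88 for PDK1 (adjusted p 0.126), 1.43 for SLC16A3 (adjusted p 0.0461) and 1.95 for NRN1 (adjusted p 0.000696).

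VIM met N2B27 from the other side. It stayed between 53.7 and 67.9 CPM in the mTeSR libraries of all 3 days, while in N2B27 it went from 9.53 and 10.8 CPM at day 4 to 42.3 and 31.6 CPM at day 6 and 77.3 and 89.8 CPM at day 8, so that the log2 difference was 0.61 and then -0.31. MX1 fell in mTeSR from 44.7 and 48.6 CPM to 22.6 and 20.5 CPM at day 6 and 8.14 and 8.67 CPM at day 8 and was at 6.17 and 7.23 CPM in N2B27 at day 8. LINC00458 and HPAT5 kept their difference, at 1.65 and 1.56 and at 1.39 and 1.64 on days 6 and 8. Among the lower genes MAGEB2 stayed lower, at -2.21 and -2.48. Its day 8 value is a fitted one, since its mean in mTeSR was then 0.687 CPM, under the floor (0.814 and 0.840 CPM).

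**Figure D4:**
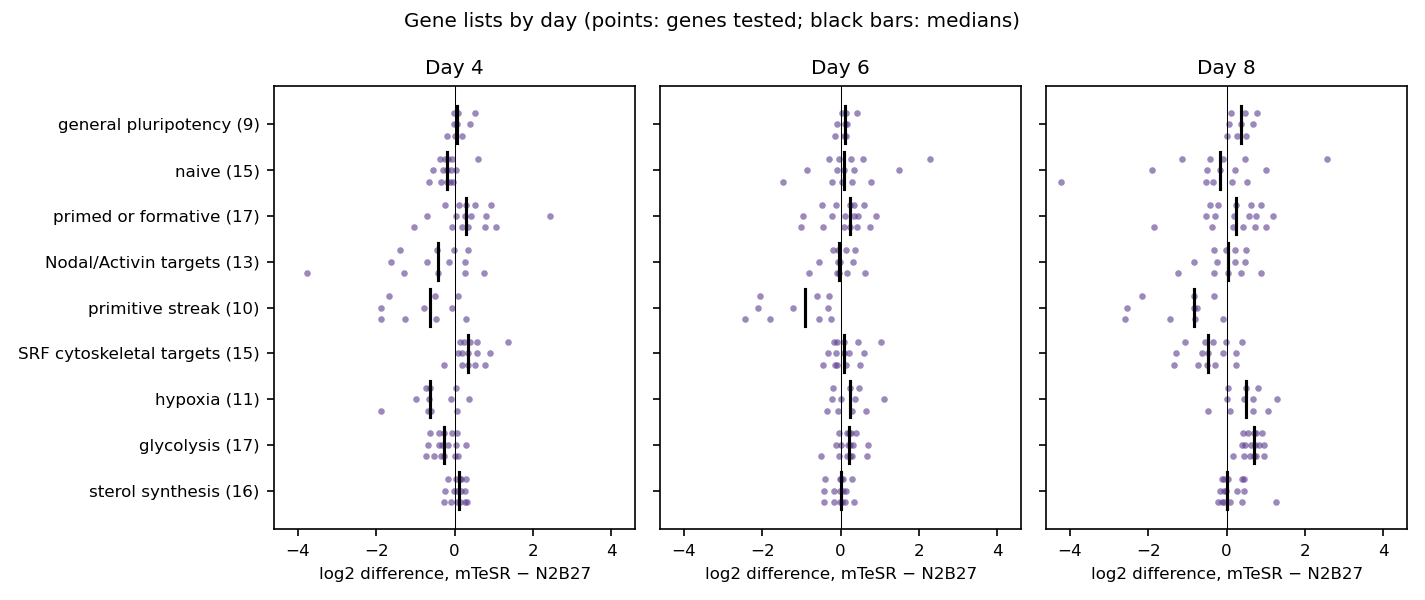
Log2 difference between mTeSR and N2B27 (x axis) of the genes in 9 lists at days 4, 6 and 8, with 1 point per gene tested, black bars at the medians and the number of genes in brackets. The hypoxia and glycolysis medians move from -0.63 and -0.27 at day 4 (0.10 and 0.07 with the second experiment's controls, not drawn) to 0.50 and 0.69 at day 8, the streak median stays under 0 on each day and the sterol synthesis median stays near 0.

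The course of time in N2B27 was taken from libraries outside the comparison, day 6 against day 3, where 1401 genes rose (8.4%) and 499 fell (2.99%). Of the 128 genes lower in mTeSR at day 4, 51 rose with time in N2B27 (39.8%) and 6 fell (4.69%), with a median log2 change of 0.80 between the days beside 0.04 over all genes. Of the 135 genes higher in mTeSR, 36 rose (26.7%) and 22 fell (16.3%), with a median of 0.28. Among the lower genes TBXT, SP5 and MIXL1 rose by 3.83, 3.49 and 2.98, and 8 of the 10 streak genes were called higher over those days. Among the higher genes RAB17, a small GTPase of polarised transport, rose by 4.13 and MIR205HG by 4.92.

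E8, the other commercial medium, also supplies FGF2 and TGFβ, and it was compared with mTeSR directly at day 4, with the same mTeSR libraries. Between them 14 genes were called (0.084%), 1 higher and 13 lower in mTeSR, and leaving out any 1 of the 4 libraries left 5 to 8 calls. Of the 263 genes that separated mTeSR from N2B27, 1 was among the 14, the clone-named transcript AC005062.1. The medians of the 135 and the 128 genes between mTeSR and E8 were 0.26 and -0.30. The same mTeSR libraries chose these genes, so a lean of these signs is built into that choice. The 1 gene higher was TXNIP, at 47.3 and 34.3 CPM in mTeSR, 13.2 and 16.6 CPM in E8 and 72.6 and 78.7 CPM in N2B27. ESRG, a retroviral transcript of pluripotent cells, was at 188 CPM in mTeSR and 405.5 CPM in E8 as means, and the metallothioneins MT1E and MT1M had log2 differences between mTeSR and E8 of -1.01 each. LEFTY2 was at 1.25 and 2.37 CPM, VIM at 35.1 and 36.3 CPM and PDK1 at 16.7 and 15.2 CPM in the E8 libraries, and none of these 3 was called between the media.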

How the data were processed

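The deposited table held gene-level estimated counts, which the authors made from 3′ tag (QuantSeq) reads with the nf-core rnaseq workflow. The submitters' processing notes name FastQC 0.11.9, STAR 2.7.10a, Salmon 1.9.0 and hg38. The values were whole numbers with no normalisation, for 57133 genes (14445 at 0 throughout) in 38 libraries, and the annotation release is not given in the sources used here. Reads without molecular identifiers are not independent molecules, so the floor of 3 counts covers counting error only.

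The analysis used edgeR 4.0.16 in R 4.3.3: filterByExpr (16674 genes kept), TMM scaling, a quasi-likelihood fit of 19 groups of 2 libraries over all 38, F-tests and Benjamini-Hochberg adjustment over all genes tested. A gene was called at an adjusted p under 0.05 and an absolute log2 difference above 1. Standard errors were derived from the F statistic. CPM are counts scaled to a library size of 1000000 after TMM. DESeq2 1.42.0 was an alternative. The scripts were tested on simulated data.

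Named genes were those of the gene lists, the 15 called genes with the largest rise and the 15 with the largest fall that had at least 20 CPM on the higher side, no overlap between groups and no clone name, and up to 5 for each other comparison within the called genes. Genes outside this rule are said to be so, and a few genes that the rule or the lists hold are not reported here. The comparison and the lists were chosen with earlier results of these data known. Gene positions came from GENCODE release 44, with 558 of 589 symbols matched to 1 position.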

Additional observations from a re-analysis of the deposited data

Results flagged for a closer look

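The medium effect of 36 of the genes named in the text differed between day 4 and a later day by the interaction test, 10 of them between days 4 and 6 and 34 between days 4 and 8. A positive value means that the level in mTeSR rose relative to N2B27 after day 4. Each value uses the day 4 libraries by which the genes were chosen. When the second experiment's N2B27 served as the day 4 controls, 3 of the 10 and 13 of the 34 were called in the same direction, and 10 and 32 kept their sign.

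Between days 4 and 6 the log2 change was 4.13 for LEFTY2, 1.60 for LEFTY1, 1.87 for SP5, 1.81 for SLC16A3, 1.68 for PDK1, 1.37 for NRN1, 1.03 for NODAL and 1.02 for KDM3A. It was -1.81 for VIM and -1.70 for MIR205HG, where N2B27 gained on mTeSR.

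Between days 4 and 8 the Nodal antagonists changed by 4.64 (LEFTY2) and 1.67 (LEFTY1) and the streak factor MIXL1 by 1.56. Among the genes tied to low oxygen or lower with them, the changes were 3.15 for SLC16A3, 3.17 for NRN1, 2.33 for PDK1, 1.42 for BNIP3P1 and 1.41 for NDRG4, and 1.72 for BNIP3, 1.49 for P4HA1, 1.32 for KDM3A, 1.69 for LDHA, 1.37 for PGK1 and 1.58 for ALDOC. TFRC changed by 1.21. The higher genes changed the other way, by -2.73 for VIM, -2.04 for MIR205HG, -1.93 for PLAU, -1.67 for MX1, -1.64 for CCDC81, -1.61 for EPHA2, -1.18 for COL6A1 and -1.27 for AC005062.1. PIEZO2 had -3.99, a fitted value that depends on the prior count since N2B27 was at or under the floor at day 4. Of the genes not called at day 4, those in which mTeSR fell relative to N2B27 after it had changes of -1.39 for ACTA1, -1.27 for ACTC1, -1.12 for TAGLN, -1.46 for CDH2, -1.26 for ALPG, -1.23 for ID3, -1.14 for DUSP6, -1.02 for CCND1, -1.81 for EGR1 and -1.15 for CXCR4. ACTC1 and CXCR4 were the 2 whose change turned with the second experiment's controls (0.24 and 0.34).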

How the results depend on the processing

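The day 4 count of 263 lay between 224 and 330 under 7 other settings of scaling, filter and samples (with 177 when the N2B27 libraries of both experiments served as controls), and moved to 146 with DESeq2 and to 175 (133 higher, 42 lower, 77 shared) with the second experiment's controls. Leaving out 1 library gave 111 to 157. The change between days 6 and 4 (28 genes) moved to 84 with no filter, 11 with the first experiment only, 65 in a fit to the compared libraries, 156 (10 shared) with the second experiment's N2B27 as the day 4 controls, an alternative added after seeing the data, and 5 to 22 without 1 library. mTeSR against E8 (14) moved to 9 with plain library totals, 58 with no filter, 7 with the first experiment only and 5 to 8 without 1 library. The change between days 8 and 4 (281) and N2B27 day 6 against day 3 (1900) stayed within 1.5 times under every setting, with 189 to 262 and 1347 to 2134 without 1 library. The cause of these moves was not tested.

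Values that turned did so with the second experiment's controls (the list medians under each setting were added after seeing the data): SLC16A3 0.27, P4HA1 0.37, BNIP3 0.10, LDHA 0.17, KDM3A 0.11, ACTA1 -0.24, ACTC1 -0.59, TAGLN -0.47, CDH2 -0.30, KLF4 -0.50, DUSP6 0.88 and TXNIP 1.02, and the medians of hypoxia 0.10, glycolysis 0.074 and SRF targets -0.18. Of all 32 lists 15 medians turned, the others being those of sterol synthesis (-0.48), metallothionein and zinc (-0.43), neural (-0.26), BMP (-0.22), p53 (-0.22), trophectoderm (-0.09), NRF2 (-0.05), WNT (-0.02) and ATF4 (-0.02) genes, Nodal pathway genes (-0.01), sterol efflux (0.44) and glucose-sensing (0.77) genes. With the controls of both experiments KLF4 (-0.025) and TAGLN (-0.026) turned, and the medians of hypoxia, glycolysis and SRF targets were -0.29, -0.09 and 0.02.

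The replicate numbers did not pair the libraries (correlation of replicate differences between the groups -0.05 over 9147 genes). A fit with the replicate number as a block gave 259 calls at day 4 (256 shared), 29 and 280 for the changes to days 6 and 8, 13 against E8 and 1893 over time, and among named genes EOMES (adjusted p 0.0519) and CYP26A1 (adjusted p 0.0541) lost their calls.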

Other observations

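Called genes outside the lists and outside the rule for named genes were picked after their values were seen. Among them, TRIM22, an antiviral ubiquitin ligase, was at 5.18 and 4.38 CPM in mTeSR and 0.867 and 0.896 CPM in N2B27 (2.40, adjusted p 0.00158), and TRIM5, a retroviral restriction factor, had 1.80. IFI16, a nuclear DNA sensor, was lower at 3.76 and 2.53 CPM against 9.53 and 9.32 CPM (-1.58, adjusted p 0.00122), as was BST2, which tethers enveloped viruses (-1.69, adjusted p 0.0195). With the second experiment's controls these 4 had 1.35, 1.88, -1.38 and -0.47, of which TRIM22 (adjusted p 0.0992) and BST2 (adjusted p 0.764) lost their calls.

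Some low genes were called on all 3 days. THBS2, the matrix glycoprotein thrombospondin 2, was at 7.76 and 8.75 CPM in mTeSR and 0.867 and 1.43 CPM in N2B27 at day 4, with log2 differences of 2.82, 3.10 and 3.24 on days 4, 6 and 8. CLEC7A, a lectin receptor known from myeloid cells, was at 16.2 and 13.6 CPM against 1.91 and 3.23 CPM, with 2.53, 3.05 and 2.68. By contrast PIEZO2, a mechanosensitive channel at or under the floor in N2B27, was at 4.0 and 3.68 CPM in mTeSR at day 4, at least 7.15-fold higher, and had 0.42 and 0.25 on the later days. ZIC1, another ZIC family factor, was lower at 2.59 and 3.68 CPM against 10.7 and 9.14 CPM (-1.65, adjusted p 0.000289).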
